A study of Arabidopsis thaliana with 4 samples.

Results

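Cell division in the funiculus was followed through 39 genes of the cell cycle and of DNA replication, chosen by locus from a table of 37051 loci. They are A-, B- and D3-type cyclins, CDKB kinases, the subunits MCM2 to MCM7 of the replicative helicase, both PCNA genes, licensing factors, Aurora kinases, cytokinesis genes, activators of the anaphase-promoting complex (APC) and the inhibitor KRP2. By the phase in which each acts, 11 were taken as S-phase genes and 23 as mitotic genes, and 5 (CYCA2;3, the 3 CYCD3 genes and KRP2) were placed in neither class. The reference gene table gave the loci these names as symbol or synonym, except that it calls CDC6A CDC6. Funiculi are the stalks that carry the seeds on the fruit wall. They were collected at flower stage 17, after fertilisation, from Arabidopsis thaliana of the Columbia ecotype and from stk (seedstick) mutants, whose allele the labels do not name. Plants of both genotypes were grown at 22 °C with 16 h of light and 8 h of dark. Each library came from polyadenylated RNA of 100 funiculi, so each value is an average over a pool, and there were 2 libraries per genotype.

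Cells copy their DNA in S phase. MCM helicases are loaded on origins by CDC6 and CDT1 and unwind the DNA, and PCNA then clamps the polymerases to it. Plant genes of this step are known as targets of E2F factors. Entry into mitosis is driven by B-type cyclins with CDKB kinases, whose genes are switched on late in the cycle by MYB3R factors that bind a motif called the mitosis-specific activator (MSA). The APC, with CDC20 or CCS52 activators, then removes the cyclins, and KNOLLE, HINKEL and PLEIADE build the new cell wall between the daughter cells. Transcripts of the mitotic genes therefore mark dividing cells, and a tissue whose cells have left the cycle carries few of them.

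The upstream sequences of the members differ by class in the motifs that they hold. Within 250 bases before the annotated gene start (RefSeq annotation of TAIR10.1), the MSA core AACGG occurred on either strand in 14 of 23 mitotic genes and in 1 of 11 S-phase genes, against 20.6% of 27443 protein-coding genes. At least 2 copies were present in 9 of the 23, against 3.62% of all. The E2F site, searched as TTTCCCGC, TTTCGCGC, TTTGCCGC or TTTGGCGC on either strand, occurred in 5 of 11 S-phase genes (MCM2 to MCM6) and in 0 of 23 mitotic genes, against 1.41% of all. Of the 5 genes in neither class, 2 (CYCD3;1 and KRP2) held an MSA core and 1 (CYCD3;3) an E2F site. The classes rest on the known roles of the genes, so the contrast describes these chosen genes alone. A match is a match of letters and is not evidence that a factor bound there. The window runs into a neighbouring gene for CDKB1;1, CDKB2;1, AUR3, CDC20.1 and CCS52B, mitotic genes without a core. It also does so for MCM7, PCNA1, PCNA2 and ETG1, S-phase genes without an E2F site. No mitotic gene with a core and no S-phase gene with an E2F site has such an overlap. The following sequences are shown because they carry the motifs of either class: 3 B-type cyclins with repeated MSA cores, 2 helicase subunits with an E2F site, and KRP2, a gene outside both classes that holds MSA cores too. Each is written 5′ to 3′ towards the gene, with capitals for the MSA core (AACGG, or CCGTT on the other strand) or for the E2F site, and lies upstream of any annotated exon of its gene. They are CYCB1;1 (chr4:17624309-17624558, minus strand), CYCB1;2 (chr5:1861704-1861953, minus strand), CYCB2;1 (chr2:7663805-7664054, plus strand), MCM2 (chr1:16969964-16970213, plus strand), MCM5 (chr2:3527501-3527750, minus strand) and KRP2 (chr3:18800056-18800305, plus strand).
CYCB1;1: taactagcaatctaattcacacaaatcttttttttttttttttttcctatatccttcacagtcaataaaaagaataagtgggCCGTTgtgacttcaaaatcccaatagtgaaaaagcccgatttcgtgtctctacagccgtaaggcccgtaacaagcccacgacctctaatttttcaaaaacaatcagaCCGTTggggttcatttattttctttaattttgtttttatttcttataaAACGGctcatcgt
CYCB1;2: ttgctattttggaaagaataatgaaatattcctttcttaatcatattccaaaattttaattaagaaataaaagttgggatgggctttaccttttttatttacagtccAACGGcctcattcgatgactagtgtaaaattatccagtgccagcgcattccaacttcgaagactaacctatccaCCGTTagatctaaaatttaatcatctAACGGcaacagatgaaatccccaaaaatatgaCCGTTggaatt
CYCB2;1: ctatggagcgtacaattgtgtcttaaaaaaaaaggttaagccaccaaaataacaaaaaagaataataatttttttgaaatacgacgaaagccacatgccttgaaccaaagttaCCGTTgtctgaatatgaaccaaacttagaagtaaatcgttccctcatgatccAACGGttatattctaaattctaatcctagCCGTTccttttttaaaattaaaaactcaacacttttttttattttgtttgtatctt
MCM2: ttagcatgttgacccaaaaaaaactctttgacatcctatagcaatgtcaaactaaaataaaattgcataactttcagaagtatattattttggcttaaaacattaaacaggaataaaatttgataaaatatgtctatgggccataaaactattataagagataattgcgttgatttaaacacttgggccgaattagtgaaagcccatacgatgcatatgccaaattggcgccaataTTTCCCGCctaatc
MCM5: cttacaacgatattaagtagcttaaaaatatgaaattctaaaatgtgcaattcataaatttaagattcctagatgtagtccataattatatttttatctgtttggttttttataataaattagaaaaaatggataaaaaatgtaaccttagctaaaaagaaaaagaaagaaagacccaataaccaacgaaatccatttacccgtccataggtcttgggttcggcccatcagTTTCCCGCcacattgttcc
KRP2: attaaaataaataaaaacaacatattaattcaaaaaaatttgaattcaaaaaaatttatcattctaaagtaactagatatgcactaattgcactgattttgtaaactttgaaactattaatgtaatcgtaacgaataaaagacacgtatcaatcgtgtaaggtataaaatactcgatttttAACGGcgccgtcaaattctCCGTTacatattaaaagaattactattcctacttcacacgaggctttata

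The 4 libraries held 4033589 to 12099218 counts, and replicate 1 was the shallower library of both genotypes. All 5 genes of ovule and funiculus identity were read in each library, STK (AT4G09960) at 374 and 555 CPM in wild-type replicates 1 and 2 and at 238 and 326 CPM in the stk replicates. CPM is the count divided by the library's size after TMM scaling and multiplied by 1e6. The allele is not named, so these levels do not test the genotype labels. Markers of the embryo, the endosperm and the stomatal lineage were low: 5 embryo genes summed to 0.576 to 5.18 CPM per library, 5 endosperm genes to 0 to 5.35 CPM and 6 genes of the stomatal lineage to 0 to 6.99 CPM. The highest sums came from single genes in stk replicate 1, LEC1 at 5.18 CPM for the embryo and EPF2 at 6.99 CPM for the stomatal lineage, above the median of the mitotic members there (4.66 CPM). Their part in the cell cycle levels was not tested. Of the 4 shoot meristem genes, CLV1, a receptor kinase that also acts elsewhere, held nearly all reads, with 122 and 25.9 CPM for wild type, against 22.3 and 49.5 CPM for stk, while WUS was at 0 in all 4 libraries and STM reached 1.62 CPM at most. Seed coat genes summed to 8.35 to 22.2 CPM and procambium genes to 159 to 243 CPM.

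The replicates of wild type stood far apart for the cell cycle genes. All 39 members were read in wild-type replicate 2, where each of them had its highest level, against 26.7% of 18092 tested genes that were highest there. Both replicate 2 libraries lay above both replicate 1 libraries for 30 of the 39 (26.4% of all tested genes). In wild-type replicate 1, 16 of the 39 had no counts. The median difference of replicate 2 over replicate 1 was 3.25 on the log2(CPM + 1) scale over the members in wild type and 0.08 over all tested genes. In stk it was 1.0 over the members and 0.17 over all. More than an 8-fold gap on that scale was seen for 22 of 39 members in wild type, against 2.68% of all tested genes. In bulk tissue, fewer dividing cells and less RNA per dividing cell cannot be told apart.

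**Figure D1:**
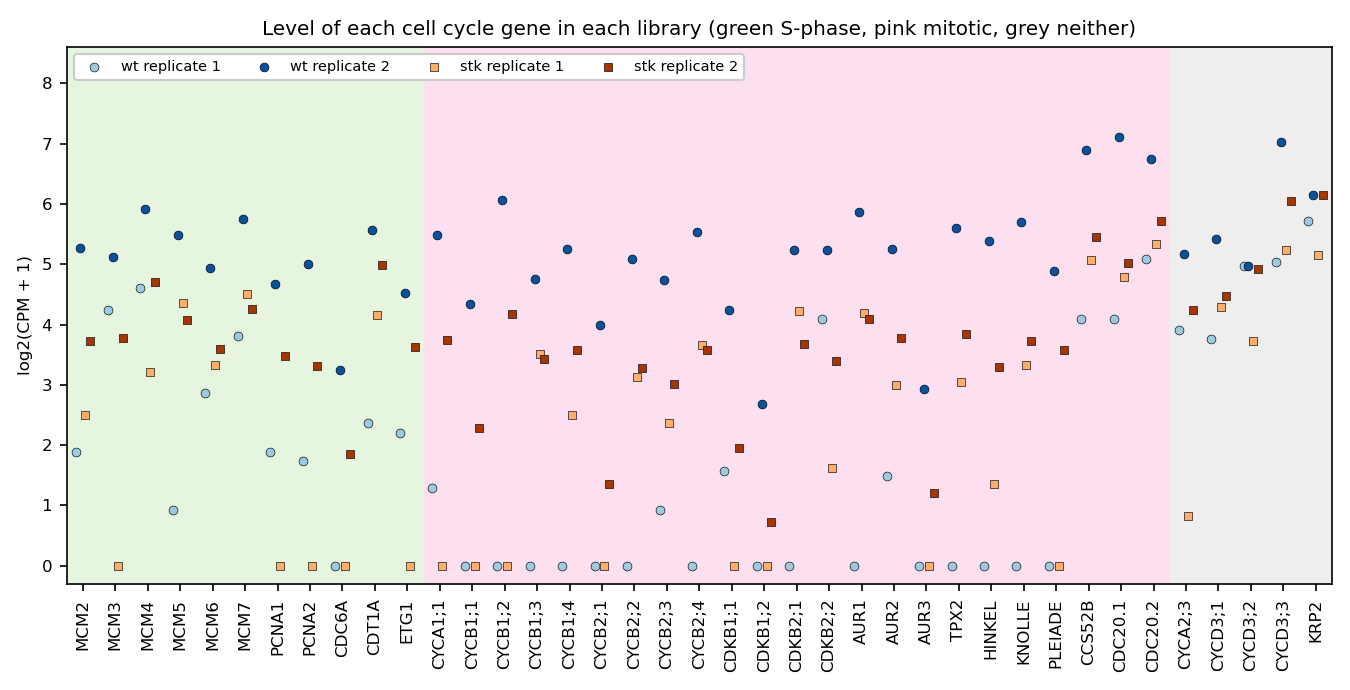
Level of each of the 39 genes in each of the 4 libraries, as log2(CPM + 1), with circles for wild type, squares for stk, and shading by class. Wild-type replicate 2 is the highest point for all 39 genes, and 15 of 23 mitotic genes lie at 0 in wild-type replicate 1.

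Among the S-phase genes the helicase subunits were read in most libraries. MCM4 (AT2G16440) stood at 23.2 and 59.6 CPM in wild-type replicates 1 and 2 against 8.28 and 25.1 CPM in the stk replicates. MCM7 (AT4G02060, also called PROLIFERA) stood at 13.1 and 52.5 CPM in wild type, against 21.7 and 18.1 CPM in stk. MCM4 was higher in wild type within each replicate number, while for MCM7 replicate 1 went the other way. MCM5 (AT2G07690) stood at 0.90 and 43.8 CPM in wild type, against 19.4 and 15.8 CPM in stk, so that both stk values lay between the wild-type values. MCM3 (AT5G46280) stood at 18.0 and 33.7 CPM in wild type, against 0 and 12.7 CPM in stk, with both stk values below both wild-type values. MCM2 (AT1G44900) stood at 2.7 and 37.7 CPM in wild type, against 4.66 and 12.3 CPM in stk. MCM6 (AT5G44635) stood at 6.30 and 29.8 CPM in wild type, against 9.06 and 11.1 CPM in stk. For both genes the stk values lay inside the wild-type range.

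Both clamp genes and 2 of the 3 licensing and replisome factors were at 0 in stk replicate 1. PCNA1 (AT1G07370) stood at 2.7 and 24.5 CPM in wild type, against 0 and 10.2 CPM in stk, and PCNA2 (AT2G29570) at 2.34 and 31 CPM and at 0 and 8.89 CPM. ETG1 (AT2G40550), a replisome factor that binds the MCM complex, stood at 3.6 and 21.9 CPM and at 0 and 11.3 CPM. Replicate 2 was the higher library for these 3 genes in both genotypes. CDC6A (AT2G29680), a loader of the helicase, was read in the replicate 2 libraries alone, at 8.54 CPM for wild type and 2.63 CPM for stk. A count of 0 allows up to 3 counts, or 0.54 CPM in wild-type replicate 1 and 0.776 CPM in stk replicate 1, by counting error alone. CDT1A (AT2G31270), the other loader, stood at 4.14 and 46.4 CPM in wild type, against 16.8 and 30.6 CPM in stk, the S-phase gene with the smallest gap between the genotypes (log2 fold change -0.09 ± 1.02, SE).

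Mitotic cyclins were nearly absent from wild-type replicate 1. The 9 genes CYCA1;1, CYCB1;1 to CYCB1;4 and CYCB2;1 to CYCB2;4 summed there to 2.34 CPM, from 13 counts, with 7 of them at 0. The same genes summed to 311 CPM in wild-type replicate 2 and to 38.6 and 82.4 CPM in the stk replicates. CYCB1;2 (AT5G06150) stood at 0 and 66.0 CPM in wild type, against 0 and 17.0 CPM in stk, a level at least 122-fold higher in wild-type replicate 2 than in replicate 1 against a floor of 3 counts in that library. CYCB1;1 (AT4G37490), widely used as a marker of cells at the entry into mitosis, stood at 0 and 19.2 CPM in wild type, against 0 and 3.87 CPM in stk. CYCB2;1 (AT2G17620) stood at 14.9 CPM in wild-type replicate 2 and 1.56 CPM in stk replicate 2. All 3 cyclins whose upstream sequences are printed above were thus at 0 in replicate 1 of either genotype. CYCB2;4 (AT1G76310) differed, at 0 and 45.5 CPM in wild type, against 11.6 and 10.9 CPM in stk, and so did CYCB1;3 (AT3G11520), at 0 and 26.1 CPM and at 10.4 and 9.71 CPM. For these 2 the stk replicates were close together and lay inside the wild-type range.

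The CDKB kinases also differed among themselves, though not all along the lines of the cyclins. CDKB2;1 (AT1G76540), a kinase of mitotic entry, stood at 0 and 36.8 CPM in wild type, against 17.6 and 11.8 CPM in stk. Its relative CDKB2;2 (AT1G20930) stood at 16.0 and 36.5 CPM in wild type, against 2.07 and 9.46 CPM in stk, the 1 mitotic gene whose stk values both lay below both wild-type values. CDKB1;1 (AT3G54180) stood at 1.98 and 17.9 CPM in wild type, against 0 and 2.88 CPM in stk. The near relatives CDKB2;1 and CDKB2;2 thus went opposite ways in replicate 1. CDKB1;2 (AT2G38620) was read in replicate 2 alone, at 5.42 CPM for wild type and 0.658 CPM for stk, and was the 1 member that the filter on low counts removed from the test.

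Kinases of the spindle and the cytokinesis genes followed the cyclins. AUR1 (AT4G32830), an Aurora kinase of the spindle, stood at 0 and 57.1 CPM in wild type, against 17.3 and 16.1 CPM in stk. TPX2 (AT1G03780), which targets and activates Aurora, stood at 0 and 47.4 CPM and at 7.25 and 13.4 CPM. In wild type both were read in replicate 2 alone, at least 106-fold and 87.8-fold above the floor of 3 counts in replicate 1. KNOLLE (AT1G08560), the syntaxin of the cell plate, stood at 0 and 50.9 CPM in wild type, against 9.06 and 12.3 CPM in stk. HINKEL (AT1G18370), a kinesin of the phragmoplast, stood at 0 and 41.0 CPM and at 1.55 and 8.8 CPM, and PLEIADE (AT5G51600), a microtubule-bundling protein of the phragmoplast, at 0 and 28.6 CPM and at 0 and 10.9 CPM. None of the 3 cytokinesis genes had a count in wild-type replicate 1. AUR2 (AT2G25880) was read in all 4 libraries, at 1.80 and 37.1 CPM and at 6.99 and 12.7 CPM, while AUR3 (AT2G45490) was at 0 in both replicate 1 libraries.

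APC activators were read in all 4 libraries, as were the mitotic genes CDKB2;2, AUR2 and CYCB2;3. CDC20.1 (AT4G33270) stood at 16.0 and 137 CPM in wild type, against 26.7 and 31.4 CPM in stk, and CDC20.2 (AT4G33260) at 32.9 and 106 CPM and at 39.3 and 51.7 CPM. CCS52B (AT5G13840), an activator that acts in mitosis, stood at 16.0 and 118 CPM and at 32.6 and 42.7 CPM. In all 3 the stk replicates lay within the range of the wild-type replicates. Per kilobase of exon, CDC20.1 (65.2 CPM per kb), CCS52B (61.0) and CDC20.2 (54.5) were the highest mitotic genes in wild-type replicate 2, where the median of the 23 was 19 CPM per kb. These 3 genes held 361 of the 484 mitotic reads of wild-type replicate 1 (74.6%, 95% exact interval 70.5 to 78.4%) and 3922 of 11293 in wild-type replicate 2 (34.7%, 33.9 to 35.6%). Their shares in stk were 49.5% and 40.8%. Intervals on reads cover counting error only, since amplified reads are not separate molecules. CDC20.1 and CDC20.2 are neighbouring copies, and 31.4% and 34.0% of the 50-base windows of their transcripts occur in the other copy, so reads could be split or lost between them.

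The 5 genes in neither class were read in all 4 libraries. CYCD3;1 (AT4G34160), CYCD3;2 (AT5G67260) and CYCD3;3 (AT3G50070) encode D-type cyclins, which act on entry into the cycle. CYCD3;3 stood at 31.8 and 129 CPM in wild type, against 36.7 and 64.8 CPM in stk, and CYCD3;1 at 12.6 and 41.5 CPM and at 18.6 and 21.1 CPM. CYCD3;2 stood at 30.2 and 30.5 CPM in wild type, with no gap between the replicates like that of the mitotic genes, and at 12.2 and 29.4 CPM in stk. KRP2 (AT3G50630), an inhibitor of cyclin-dependent kinases, stood at 51.8 and 70.0 CPM and at 34.4 and 69.6 CPM, within 2.02-fold between replicates of a genotype. CYCA2;3 (AT1G15570), an A-type cyclin known to restrain endoreduplication, stood at 14.0 and 34.8 CPM in wild type, against 0.776 and 18.0 CPM in stk.

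S-phase and mitotic genes did not keep the same balance from library to library. The mean of log2(CPM + 1) over the S-phase genes was 2.41, 5.05, 2.01 and 3.76 in wild-type replicates 1 and 2 and stk replicates 1 and 2, and over the mitotic genes 0.98, 5.17, 2.22 and 3.39. S-phase minus mitotic was therefore 1.43 and -0.13 in the wild-type replicates and -0.22 and 0.37 in the stk replicates. Wild-type replicate 1 stood apart with the highest S-phase excess. The gap between the replicates of wild type was larger than the difference between the genotype means, which was -0.57 (stk minus wild type). In the replicate 1 libraries alone the difference was -1.65 and in the replicate 2 libraries alone 0.50, so the sign changed with the libraries compared. The labels name no shared source for libraries of the same number, and the main fit did not match them. Without wild-type replicate 1 it was 0.21. The size also moved with the scale: the difference was -1.12 with a pseudocount of 0.25, -0.96 between class medians, -0.34 on the log2 of summed CPM and -0.33 without PCNA, CDC20, AUR1 and AUR2. On summed CPM, S-phase minus mitotic was -0.18 in wild-type replicate 1, and without those genes it was 0.67 in stk replicate 1, so the sign within a library depended on these choices.

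The classes also differed in how many members had no counts. In wild-type replicate 1, 15 of 23 mitotic genes and 1 of 11 S-phase genes (CDC6A) were at 0, and in stk replicate 1 it was 8 of 23 and 5 of 11. No member was at 0 in a replicate 2 library. When wild-type replicate 2 and stk replicate 2 were thinned to the total of the shallowest library, 4033589 counts, the mean number of S-phase and of mitotic genes at 0 over 20 draws was 0 in each. Each member had at least 59 counts in wild-type replicate 2, so thinning could hardly give zeros there. Thinning changes depth alone and cannot lower the numbers in the replicate 1 libraries, and the cause of the zeros was not tested. Genes of like level were seldom at 0: of 8545 genes with 10 to 50 CPM in wild-type replicate 2, 2.43% had no count in wild-type replicate 1, whereas 10 of 15 mitotic and 0 of 8 S-phase genes in that range had none. For stk the share was 4.41% of 8353 genes, and 3 of 12 mitotic and 3 of 9 S-phase genes.

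In reads, mitotic genes took 53.1% of the S-phase and mitotic reads in wild-type replicate 1 (95% exact interval 49.8 to 56.3%), and 72.7% (72.0 to 73.4%) in wild-type replicate 2. In the stk replicates they took 71.3% (68.5 to 74.0%) and 66.0% (64.8 to 67.3%). Most of the mitotic reads of wild-type replicate 1 came from 4 genes, the 3 APC activators and CDKB2;2, which held 450 of 484. Without these 4, a choice made after the values were seen that itself lowers the share in this library, the other 19 mitotic genes had 34 reads there, and their share was 7.36% (5.15 to 10.1%). It was 62.2% for wild-type replicate 2 and 55.2% and 52.2% for the stk replicates.

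**Figure D2:**
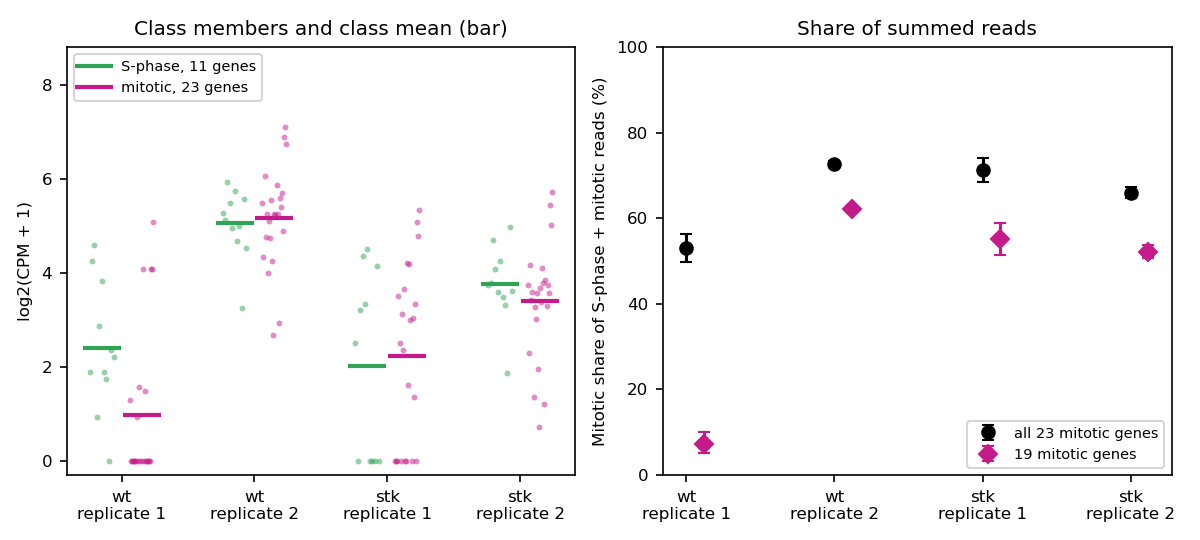
Left, log2(CPM + 1) of the 11 S-phase and 23 mitotic genes in each library, with a bar at the class mean. Right, the mitotic share in percent of the summed reads of both classes, with 95% exact intervals for counting error; diamonds leave out the APC activators and CDKB2;2, 4 genes chosen after their values were seen because they hold most mitotic reads of wild-type replicate 1, so the low 7.36% there follows in part from the choice.

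The comparison of stk with wild type asks whether the stk mutation changes cell cycle transcripts in this tissue. All 38 tested members had a negative log2 fold change, where 54.2% of 18092 tested genes had one. The median was -1.25 over the 11 S-phase genes, -1.25 over the 22 tested mitotic genes and -0.54 over the 5 others, against -0.08 over all genes. None of the 38 passed edgeR's quasi-likelihood test (0 at a Benjamini-Hochberg adjusted p under 0.05, with an adjusted p of 1 for each), and 0 had an unadjusted p under 0.05. Over all genes edgeR called 0.00553%, and 3.36% had an unadjusted p under 0.05. DESeq2 called 0 of the 38 (0.884% of all genes) with 1 at an unadjusted p under 0.05 (4.73% of all), and limma-voom called 0 (0.205% of all) with 0. The lowest p in edgeR was that of CDKB2;2, whose log2 fold change was -2.16, with an SE of 1.03 (edgeR adjusted p = 1). MCM4 followed, at -1.30 ± 0.76 (SE; edgeR adjusted p = 1), and then CDC20.1, at -1.40 ± 0.86 (edgeR adjusted p = 1). The cyclins had larger errors: CYCB1;2 had a log2 fold change of -1.92 ± 2.20 and CYCB2;1 one of -3.15 ± 2.85.

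The groups overlapped for 36 of 39 members. MCM3, CDKB2;2 and CYCD3;2 had both stk values below both wild-type values, as 16.6% of all tested genes did, and no member had both above (15.9% of all). The shared negative sign rested on wild-type replicate 2. Without that library, 30 of the 36 members that could be tested had a positive log2 fold change, and the median was 0.94 over the S-phase genes and 8.28 over the mitotic genes. Fitted values then reached 9.91 for AUR1, where the remaining wild-type library has no count, so they depend on the prior count and give no size. Without wild-type replicate 1 all 39 were negative, and CDC20.1 alone was called, at -2.21 ± 0.58 (edgeR adjusted p = 0.0466; 1.01% of all genes were called there). That fit has a single wild-type library, which is assumed to vary as the 2 stk libraries do. In limma-voom 27 of 38 were negative and 11 positive. With a replicate block in edgeR, 25 were negative and 13 positive, and the median over the mitotic genes was -0.11.

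**Figure D3:**
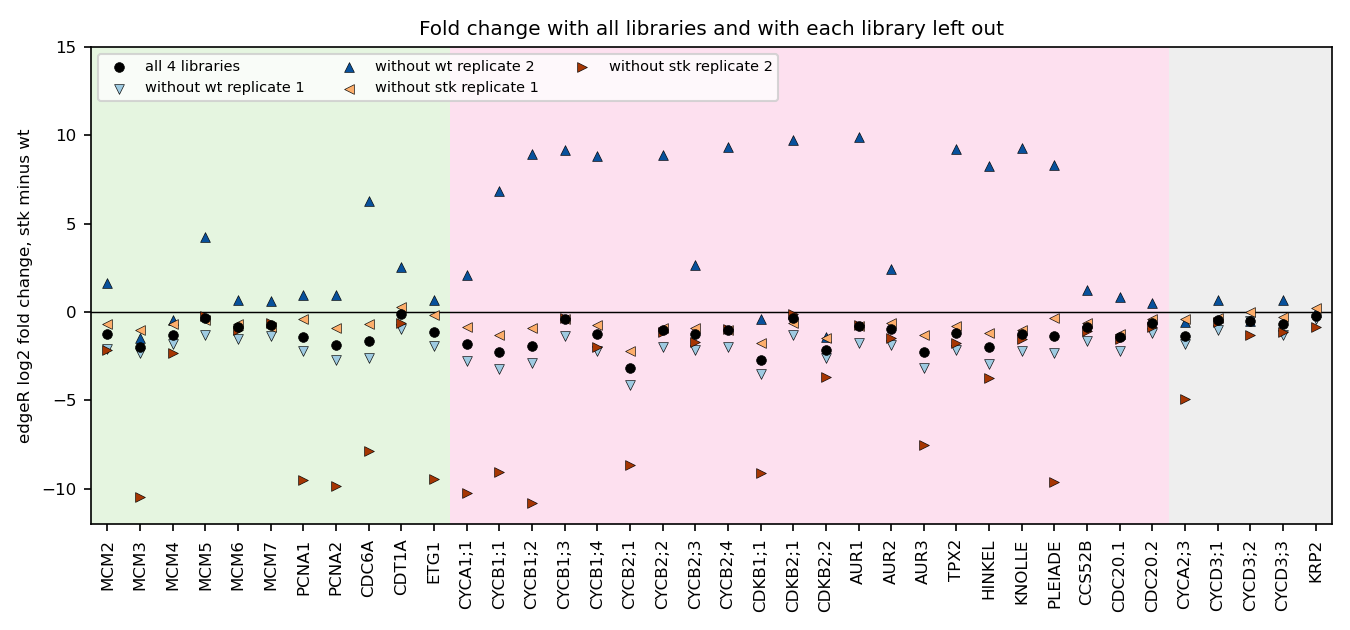
edgeR log2 fold change (stk minus wild type) of the 38 tested members with all 4 libraries (black) and with each library left out. With all libraries every point lies below 0, and without wild-type replicate 2 (dark blue) 30 of 36 lie above 0.

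Within the deeper pair of libraries, which share a replicate number, the members were lower in stk together. In replicate 2, all 39 were lower in stk than in wild type, as were 51.7% of all tested genes. For the members this follows from wild-type replicate 2 being the highest library of all 39, and it is no separate result. The level in stk was 0.5 times the wild-type level or less for 32 of them, as for 8.9% of all. With 1 library on each side these ratios have no replicate check. By class, 23 of 23 mitotic genes, 9 of 11 S-phase genes and 0 of the 5 others were at or under 0.5. Of those 5, CYCD3;3 (0.502), CYCD3;1 (0.507) and CYCA2;3 (0.518) lay just above that limit, and CDC20.2 (0.488) just inside it. The median ratio was 0.264 over the mitotic genes (range 0.105 to 0.488) and 0.372 over the S-phase genes (range 0.286 to 0.66), and the ranges overlapped. CYCB2;1 had the lowest ratio, 0.105 (95% exact interval 0.0617 to 0.169, counting error only). KRP2 and CYCD3;2 had ratios of 0.995 (0.901 to 1.10) and 0.964 (0.827 to 1.12) in replicate 2, whose intervals include 1. Their ratios in replicate 1 were 0.664 (0.537 to 0.818) and 0.402 (0.285 to 0.559), whose intervals lie below 1. Mitotic genes with an MSA core had a median ratio of 0.27 (14 genes) and those without one 0.24 (9 genes). The upstream windows of some genes without a core run into a neighbouring gene, as named above. The neighbours CDC20.1 and CDC20.2 had ratios of 0.23 (0.205 to 0.257) and 0.488 (0.443 to 0.539), with the shared windows named above and 1 library on each side.

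The shallower pair did not repeat this. In replicate 1, 14 mitotic genes were higher in stk, 3 were lower and 6 were at 0 in both libraries. Of the S-phase genes 5 were higher, 5 were lower and 1 was at 0 in both. Of the 5 genes in neither class 2 were higher and 3 were lower, KRP2 and CYCD3;2 among the lower. Over all tested genes 45.3% were higher and 51.7% lower in stk replicate 1. The summed level of the mitotic genes was 87.1 CPM in wild-type replicate 1 and 199 CPM in stk replicate 1, while in replicate 2 it was 1037 and 309 CPM.

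**Figure D4:**
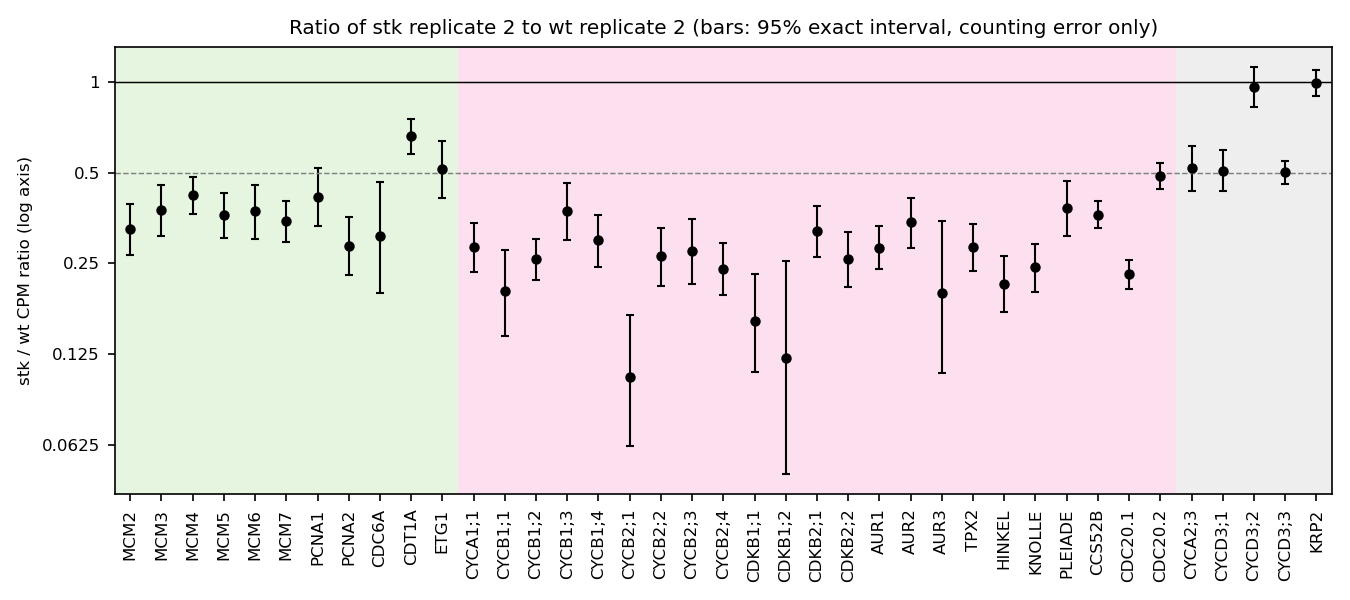
Ratio of the CPM level in stk replicate 2 to that in wild-type replicate 2 for each member, on a log axis, with 95% exact intervals for counting error. The 23 mitotic genes (pink) lie from 0.105 to 0.488, below the dashed line at 0.5, and CYCD3;2 and KRP2 lie near 1.

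Lists of other genes of the same pathways held no gene past the test, and they differed in the order of the libraries. For the lists here and below, the shares over all tested genes were 54.2% negative and 26.7% highest in wild-type replicate 2. The edgeR test called 0.00553% of all tested genes, with 3.36% at an unadjusted p under 0.05. The 5 genes of replication-coupled histone H3.1, which packages new DNA, summed to 83.7 and 656 CPM in wild type and to 80.0 and 242 CPM in stk. All 5 were highest in wild-type replicate 2. AT5G65360 stood at 184 CPM there, AT1G09200 at 172 CPM and AT3G27360 at 52.1 CPM. AT5G10400 stood at 20.9 and 176 CPM in wild type, against 10.1 and 51.1 CPM in stk (edgeR log2 fold change -1.67 ± 1.02, adjusted p = 1). Since the H3.1 genes encode the same protein, reads could be split among them.

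Of 19 other mitotic genes, 15 were highest in wild-type replicate 2 and 9 were at 0 in wild-type replicate 1. POK2 (AT3G19050), a kinesin that guides the division plane, stood at 9.90 and 58.9 CPM in wild type, against 3.62 and 13.6 CPM in stk. MYB3R4 (AT5G11510), an activator of MSA genes, stood at 1.98 and 40.7 CPM and at 0 and 13.6 CPM. PANS1 (AT3G14190), which protects sister chromatid cohesion, stood at 6.30 and 57.8 CPM and at 19.4 and 13.9 CPM, and CKS2 (AT2G27970), a small subunit bound to the kinases, at 31.8 and 119 CPM and at 37.5 and 42.8 CPM. Wild-type replicate 2 was the highest library for all 4. Of the 17 tested in this list, 14 were negative, with a median log2 fold change of -0.95, and edgeR called 0, with 0 at an unadjusted p under 0.05.

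Of 22 other replication genes, 17 were highest in wild-type replicate 2, and their sum ran from 191 CPM in stk replicate 1 to 546 CPM in wild-type replicate 2. The list stood closer between the wild-type replicates (273 and 546 CPM) than the S-phase members did (77.0 and 390 CPM). ORC5 (AT4G29910), of the origin recognition complex, stood at 29.3 and 22.7 CPM in wild type, against 0 and 9.38 CPM in stk, and LIG1 (AT1G08130), a DNA ligase, at 47.5 and 44.0 CPM and at 3.36 and 34.9 CPM. CDC45 (AT3G25100), a partner of the MCM helicase, stood at 7.92 and 10.2 CPM and at 0 and 3.21 CPM, and MCM10 (AT2G20980) at 5.40 and 8.72 CPM and at 0 and 2.63 CPM. These 4, named for the lowest p in the list, are among 7 of its 21 tested genes with both stk values below both wild-type values (16.6% of all tested genes); 0 had both above. Their wild-type replicates lay close together, and stk replicate 1 was the lowest library. Of 21 tested, 18 were negative, with a median of -0.79, and edgeR called 0, with 0 at an unadjusted p under 0.05.

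Among regulators of the E2F pathway, 7 of 9 were highest in wild-type replicate 2. The retinoblastoma homologue RBR1 (AT3G12280), which holds E2F factors in check, stood at 47.0 and 44.9 CPM in wild type, against 33.9 and 39.9 CPM in stk, and E2FA (AT2G36010) at 4.50 and 16.3 CPM and at 3.88 and 6.25 CPM. DPB (AT5G03415), a dimer partner of E2F, stood at 25.4 and 23.1 CPM and at 4.40 and 19.7 CPM, and DEL3 (AT3G01330), an atypical E2F, was read in replicate 2 alone, at 9.46 and 1.40 CPM. All 8 tested were negative, with a median of -0.74, and edgeR called 0, with 0 at an unadjusted p under 0.05.

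Among the other A- and D-type cyclins, CDKA;1 and CKS1, 8 of 13 tested genes were negative, with a median of -0.38, and edgeR called 0, with 0 at an unadjusted p under 0.05. CDKA;1 (AT3G48750), the kinase used throughout the cycle, stood at 23.0 and 42.8 CPM in wild type, against 56.9 and 51.4 CPM in stk (edgeR log2 fold change 0.72 ± 0.50, adjusted p = 1). CYCD1;1 (AT1G70210) stood at 11 and 28.2 CPM and at 7.25 and 11.7 CPM, CYCA3;1 (AT5G43080) at 5.04 and 17.1 CPM and at 0 and 5.51 CPM, and CYCA3;4 (AT1G47230) at 20.9 and 20.8 CPM and at 4.40 and 17.0 CPM. Both stk values lay above both wild-type values for 2 of the 13, CDKA;1 among them (15.9% of all tested genes), and below them for 1. CDKA;1 was higher in stk replicate 2 than in wild-type replicate 2, the reverse of its mitotic relatives in replicate 2.

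Inhibitors of the cell cycle kinases and genes of endoreduplication, the doubling of DNA without division, lay the other way in median. Of 9 tested, 7 were positive, with a median of 0.54, while 54.2% of all tested genes were negative. The list had 18 entries, of which 5 were left out for their names and 13 were used, so the median covers part of it. The inhibitor KRP2, at a log2 fold change of -0.22, is counted among the members and not here. The edgeR test called 0, with 1 at an unadjusted p under 0.05 (3.36% of all). That gene was SIM (AT5G04470), an inhibitor known to promote endoreduplication in leaf hairs, at 3.42 and 1.29 CPM in wild type, against 29.8 and 10.9 CPM in stk (edgeR log2 fold change 3.11 ± 1.23, adjusted p = 1). SMR1 (AT3G10525), of the same family, stood at 0 and 1.10 CPM and at 9.32 and 5.51 CPM. CCS52A1 (AT4G22910), an APC activator of the endocycle, stood at 6.66 and 14.4 CPM and at 25.1 and 17.8 CPM, and KRP5 (AT3G24810) at 24.5 and 16.4 CPM and at 16.0 and 8.14 CPM. Both stk values of SIM, SMR1 and CCS52A1 lay above both wild-type values, as for 3 of the 9 tested genes (15.9% of all tested genes), and those of KRP5 lay below them, as for 1 of the 9 (16.6% of all). These genes were named for the lowest p in the list. Neither SIM nor SMR1 was highest in wild-type replicate 2.

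**Figure D5:**
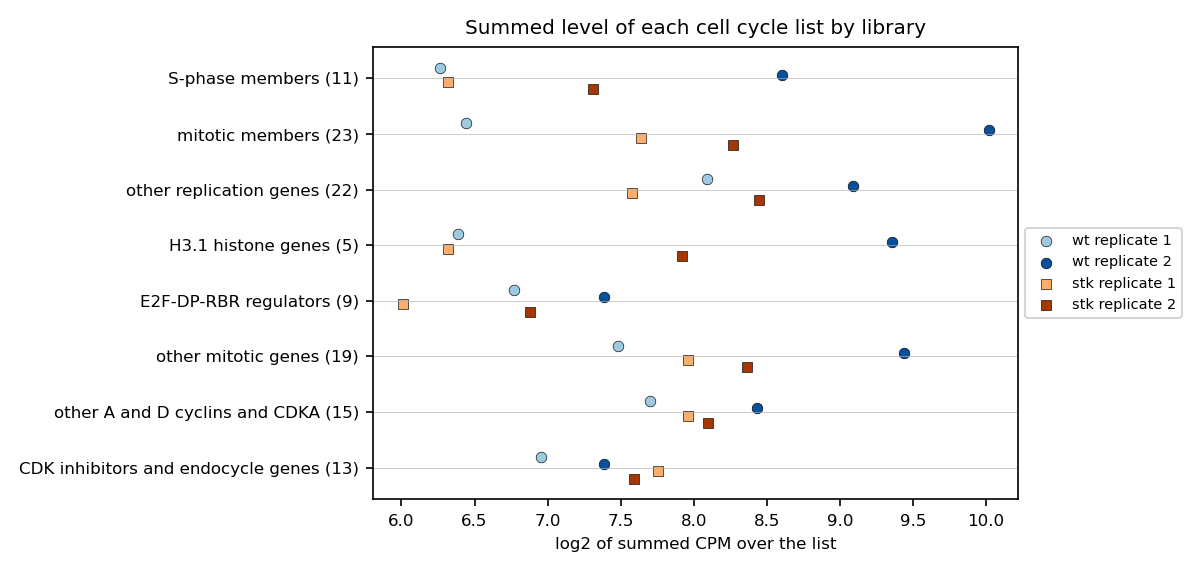
Summed CPM of the S-phase and mitotic members and of the 6 lists of other cell cycle genes in each library, on a log2 axis, with the number of genes in brackets. Among these 8 groups of genes, wild-type replicate 2 is highest for all but the inhibitors and endocycle genes, and the mitotic members span the widest range, from 87.1 to 1037 CPM.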

How the data were processed

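Polyadenylated RNA from 2 wild-type and 2 stk libraries was analysed from the authors' deposited table of raw read counts per locus. Trimmomatic 0.38, STAR 2.7.0, featureCounts 1.6.3 and DESeq2 1.38.3 are named in the submitters' processing notes, with no role stated. Build, strand setting and treatment of multi-mapping reads: not given in the sources used here. Each of the 37051 loci matched the RefSeq gene table of TAIR10.1, which supplied names, exon lengths and upstream sequences. The library kit does not mark strand, and 15 members overlap a gene on the opposite strand, whose reads cannot be told from theirs: CYCA2;3, CDKB1;1, CDKB1;2, CDKB2;1, CDKB2;2, CYCD3;2, KNOLLE, TPX2, AUR1, AUR2, AUR3, MCM7, PCNA2, CCS52B and CDC6A. Besides CDC20.1 and CDC20.2, 17.3% of the 50-base windows of CYCB2;3, 11.8% of those of CYCB1;2 and 1.02% of those of CDC6A occur in another gene.

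The main test on counts was edgeR's quasi-likelihood fit (edgeR 4.0.16, R 4.3.3) with TMM scaling, filterByExpr (18092 genes), genotype as the single term and Benjamini-Hochberg adjustment over all tested genes at 0.05. The SE given with an edgeR value was derived from the test. It is the size of the log2 fold change divided by the square root of the quasi-likelihood F statistic. CPM values use TMM-scaled sizes of the tested genes. Alternatives were DESeq2 1.42.0, voom from limma 3.58.1, other scalings and filters, a replicate block and each library left out. The pipeline was run on simulated counts with known changes. That check required the right sign for most large changes, and the power to call members is not given here. The 2 libraries per genotype are biological replicates per the labels. Of 125 entries of 13 lists of other cell cycle genes and markers, 8 were left out because the reference does not give the locus that name. Of these, 5 were in the list of inhibitors and endocycle genes. Any member could be named. From each list of other cell cycle genes, up to 4 with the lowest edgeR p were named. The members, lists and classes were chosen with earlier results of these data known.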

Additional observations from a re-analysis of the deposited data

How the results depend on the processing

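The count of members called was 0 in edgeR with any scaling or filter tried, in DESeq2 and in limma-voom, and ranged from 0 to 1 with a library left out. The count over all genes was less stable: edgeR called 1, DESeq2 160, limma-voom 37, edgeR with no filter 275, edgeR with the replicate block 169 and edgeR with the stricter filter (mean CPM of 5 or more) 0 (567 at an unadjusted p under 0.05), and leaving out a library gave 5 to 198. With a library left out, the median log2 fold change ranged from -2.33 to 0.94 over S-phase genes and from -2.21 to 8.28 over mitotic genes, positive without wild-type replicate 2. S-phase minus mitotic (stk minus wild type) ranged from -1.35 to 0.21. It was -1.65 in the replicate 1 libraries alone and 0.50 in the replicate 2 libraries alone, a split added after the data were seen. The cause of these shifts was not tested.

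Replicate numbers are shared between the genotypes, and the deviations of same-numbered libraries correlated at 0.245 across 18092 genes, with 2 pairs. The labels name no shared source, and the main fit did not pair the samples. Whether libraries of the same number share a batch was not tested. With the replicate block no member was called (3 of 38 at an unadjusted p under 0.05, against 5.94% of all genes), the mitotic median was -0.11 and the S-phase median -1.36, and 13 members turned positive: CYCB1;3 (1.96), CYCB1;4 (1.14), CYCB2;2 (1.44), CYCB2;3 (0.04), CYCB2;4 (1.41), CDKB2;1 (1.93), KNOLLE (1.19), TPX2 (1.21), AUR1 (1.58), AUR2 (0.10), MCM5 (1.20), CDT1A (0.65) and HINKEL (0.12). Other edgeR scalings and filters changed no member's sign, while limma-voom gave 11 positive values.

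With a library left out, the log2 fold change of 30 members changed sign. The ranges were CYCA1;1 -10.27 to 2.12, CYCB1;1 -9.04 to 6.84, CYCB1;2 -10.82 to 8.96, CYCB1;3 -1.36 to 9.17, CYCB1;4 -2.20 to 8.83, CYCB2;2 -1.98 to 8.89, CYCB2;3 -2.16 to 2.63, CYCB2;4 -1.99 to 9.35, CDKB2;1 -1.31 to 9.72, CYCD3;1 -1.04 to 0.67. For further members they were CYCD3;3 -1.32 to 0.69, KNOLLE -2.22 to 9.27, TPX2 -2.16 to 9.22, AUR1 -1.75 to 9.91, AUR2 -1.88 to 2.45, MCM2 -2.13 to 1.66, MCM5 -1.30 to 4.27, MCM6 -1.54 to 0.69, MCM7 -1.38 to 0.61, PCNA1 -9.54 to 0.94. The last were PCNA2 -9.83 to 0.95, CDC20.1 -2.21 to 0.87, CDC20.2 -1.19 to 0.48, CCS52B -1.62 to 1.24, ETG1 -9.45 to 0.67, CDT1A -0.94 to 2.53, CDC6A -7.87 to 6.30, HINKEL -3.73 to 8.24, PLEIADE -9.61 to 8.32 and KRP2 -0.83 to 0.22. Values beyond about 6 in size arise where the remaining libraries of a genotype hold no count. The 8 other tested members stayed negative in each such fit that tested them. The depth of the replicate 1 libraries and the 16 and 13 members at 0 there limit every fold change that rests on them.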

Other observations

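ANT (AT4G37750), an AP2-type factor known to sustain growth and division in young organs and held here among the procambium markers, had the order of libraries seen for the summed level of the mitotic genes, an order that not every mitotic gene has. Its level was 0 and 15.7 CPM in wild-type replicates 1 and 2, against 1.04 and 3.04 CPM in stk. The stk replicate 1 value rests on 4 counts, so the order of the replicate 1 libraries is not settled beyond counting error. It was singled out after its values were seen. PXY, ATHB-8 and ATHB-15 of the same list did not share this order, and WOX4 reached 2.06 CPM at most. PXY (AT5G61480), a receptor kinase of the cambium, stood at 81.7 and 85.8 CPM in wild type, against 49.7 and 49.5 CPM in stk, and ATHB-8 (AT4G32880) at 43.7 and 64.0 CPM and at 44.0 and 64.3 CPM. ATHB-15 (AT1G52150) stood at 75.8 and 76.7 CPM, against 63.7 and 42.1 CPM.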
